A study of Mus musculus with 10 samples.

Results

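Vax2, Barx1, Twist1, Pax2 and Tbx1 encode transcription factors of the embryo, and all 5 were selected on their rise in somatosensory cortex of 2.5-month-old mice lacking Nsd1 in excitatory neurons. They are 5 of 23283 named rows in the 2.5-month table and 5 of 54427 in the 3-month table. Nsd1 encodes a methyltransferase for lysine 36 of histone H3. RNA sequencing covered 4 groups. Nex_cKO comprised 3 libraries of Nsd1Nex-cKO cortex at 2.5 months, and Nex_Ctrl comprised 3 libraries of that age, of which replicates 1 and 2 were labelled Nsd1fl/+ and replicate 3 Nsd1fl/fl. Camk2a_cKO comprised 2 libraries of Nsd1Camk2a-cKO cortex at 3 months, and Camk2a_Ctrl comprised 2 Nsd1fl/+ libraries of that age. All 4 groups thus carry at least 1 floxed Nsd1 allele, and the labels do not say whether controls carried Cre or whether each replicate was a separate mouse. Cre from the Neurod6 (Nex) locus acts in young postmitotic excitatory neurons, and Cre from the Camk2a promoter acts in forebrain excitatory neurons as they mature. Cortex was sequenced whole, so every other cell type in it kept its Nsd1.

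Each of the 5 genes is known for a place in the embryo other than the cortex. Vax2 is a homeobox factor of the ventral retina and optic stalk, Barx1 a homeobox factor of stomach mesenchyme and molar tooth buds, and Twist1 a basic helix-loop-helix (bHLH) factor of cranial mesenchyme and neural crest. Pax2 is a paired-box factor of the midbrain-hindbrain boundary, optic stalk, inner ear and kidney, and Tbx1 a T-box factor of the pharyngeal arches. Promoters of such regulators are often rich in CG dinucleotides and are held silent by Polycomb repression in tissues where the gene is off. Methylation of lysine 36 by NSD1 is known to oppose the Polycomb mark on lysine 27 of the same histone.

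Of the 5 genes, 4 had an entry among RefSeq promoters of GRCm38.p6, and the 250 bases before the start of each are shown because CG content is what promoters of developmental regulators are known for. CG is in capitals, and it reads the same on both strands.
Barx1: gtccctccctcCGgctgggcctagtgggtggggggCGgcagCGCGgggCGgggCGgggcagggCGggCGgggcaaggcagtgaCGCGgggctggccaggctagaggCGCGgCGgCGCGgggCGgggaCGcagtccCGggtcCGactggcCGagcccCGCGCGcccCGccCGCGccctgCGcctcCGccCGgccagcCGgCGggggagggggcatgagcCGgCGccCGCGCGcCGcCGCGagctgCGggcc
Twist1: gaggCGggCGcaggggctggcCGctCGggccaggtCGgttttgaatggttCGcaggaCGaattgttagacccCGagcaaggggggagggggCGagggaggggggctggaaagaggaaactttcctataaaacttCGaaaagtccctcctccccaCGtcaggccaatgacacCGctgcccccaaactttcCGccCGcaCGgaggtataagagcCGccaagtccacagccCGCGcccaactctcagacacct
Pax2: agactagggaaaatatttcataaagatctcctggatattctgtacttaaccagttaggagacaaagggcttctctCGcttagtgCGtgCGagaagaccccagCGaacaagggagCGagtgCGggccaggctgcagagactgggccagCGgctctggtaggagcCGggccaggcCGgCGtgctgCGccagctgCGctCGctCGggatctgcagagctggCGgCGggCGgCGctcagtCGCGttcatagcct
Tbx1: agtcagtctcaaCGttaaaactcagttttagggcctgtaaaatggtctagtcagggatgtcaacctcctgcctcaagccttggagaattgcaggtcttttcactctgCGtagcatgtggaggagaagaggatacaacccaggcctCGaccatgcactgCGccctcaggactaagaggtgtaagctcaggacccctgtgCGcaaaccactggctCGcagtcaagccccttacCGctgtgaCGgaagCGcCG
Where RefSeq gives several starts (Pax2 and Tbx1), the one nearest to the gene's start in the 3-month table was taken. That start lay 293 bases upstream of the table's for Pax2 and 38 bases downstream of it for Barx1. The Barx1 stretch lies at chr13:48662786-48663035 on the + strand and held 40 CG. The Twist1 stretch lies at chr12:33957421-33957670 (+) and held 18, the Pax2 stretch at chr19:44755502-44755751 (+) and held 20, and the Tbx1 stretch at chr16:18590672-18590921 (-) and held 10. Across 32848 RefSeq promoters the median was 6 CG in the same window. Fewer CG than in Barx1 were found in 98.7% of those promoters, and the shares were 78.3% for Twist1, 82.1% for Pax2 and 62.2% for Tbx1. Relative to the number expected from base composition, CG stood at 0.89 in Barx1, 0.74 in Twist1, 0.88 in Pax2 and 0.54 in Tbx1, against a median of 0.37. All 4 promoters shown were thus above the median on both measures, Tbx1 least so. Another RefSeq start of Pax2, 9444 bases from the gene's start in the 3-month table, held 5 CG, below the median count, at a ratio of 0.39. A further Pax2 start, 861 bases away, held 25 CG at a ratio of 0.76. The other Tbx1 start, 1772 bases away, held 17 CG at a ratio of 0.60. The CG count was not used to choose the genes and describes sequence only, since no methylation or histone mark was analysed here.

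The genes lie on different chromosomes, at the following GRCm38 positions. Vax2 (ENSMUSG00000034777) spans chr6:83711264-83738313 (+), Barx1 (ENSMUSG00000021381) chr13:48662998-48666507 (+) and Twist1 (ENSMUSG00000035799) chr12:33957671-33959829 (+). Pax2 (ENSMUSG00000004231) spans chr19:44756045-44837871 (+) and Tbx1 (ENSMUSG00000009097) chr16:18580979-18590671 (-).

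Levels are FPKM (fragments per kilobase of gene, scaled to the mapped fragments of a library) as the authors deposited them, in 2 tables normalised apart. Read depth is unknown for the Nex libraries. Named rows at FPKM 1 or more numbered 12487, 12517 and 12519 in Nex_cKO and 12177, 12216 and 12204 in Nex_Ctrl. In the 3-month table they numbered 12929 and 12756 in Camk2a_cKO and 12648 and 12545 in Camk2a_Ctrl. In both models every cKO library thus had more such rows than every control. The part of this difference in the levels of the 5 genes was not tested. Reads recovered for the Camk2a libraries summed to 16901717 and 16943855 in Camk2a_cKO and to 17521841 and 20074933 in Camk2a_Ctrl. Nex_cKO replicate 3 stood apart, with the Y-linked gene Ddx3y at 16.2 FPKM where the other 5 Nex libraries listed it at 0, and with 41.55% of its summed FPKM in rows without a gene name, against 2.33% to 19.41% in those 5. Nsd1 was given at 2.5 months only as a locus joined with Prelid1, with 91.0, 118.1 and 105.6 FPKM in Nex_cKO and 129.9, 125.1 and 141.4 FPKM in Nex_Ctrl (limma adjusted p = 0.0863). In the Camk2a model Nsd1 had 4.31 and 4.99 FPKM in Camk2a_cKO and 5.61 and 8.87 FPKM in Camk2a_Ctrl (limma adjusted p = 0.685). Neurod6, a marker of cortical excitatory neurons at the locus that carries Nex-Cre, was present at 18.0 ± 3.85 FPKM in Nex_cKO and 31.6 ± 2.30 FPKM in Nex_Ctrl (SD, n = 3 each).

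At 2.5 months, 4 of the 5 genes lay between 0 and 0.634 FPKM in control cortex and between 1.49 and 4.70 FPKM in cKO cortex, and the fifth, Tbx1, was already present in controls. These are the values the genes were chosen on and are given without a test. Vax2 had 3.45, 4.20 and 4.57 FPKM in Nex_cKO, against 0, 0.0487 and 0 FPKM in Nex_Ctrl. The lowest cKO library was 70.8 times the one control library above 0. Barx1 had 3.50, 3.05 and 3.80 FPKM in Nex_cKO and was listed at 0 in all 3 Nex_Ctrl libraries. No fold is given for Barx1, since values listed at 0 carry no depth.

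Twist1 had 3.85, 4.70 and 4.53 FPKM in Nex_cKO, against 0.634, 0.261 and 0.221 FPKM in Nex_Ctrl. Its cKO mean of 4.36 ± 0.450 FPKM was 11.7 times the control mean of 0.372 ± 0.228 FPKM (SD, n = 3 each), so low Twist1 was detected in every control library. Pax2 had 1.49, 2.09 and 2.15 FPKM in Nex_cKO, against 0.0418, 0.0587 and 0.0807 FPKM in Nex_Ctrl. The mean of 1.91 ± 0.365 FPKM in Nex_cKO was 31.6 times that of 0.0604 ± 0.0195 FPKM in Nex_Ctrl (SD, n = 3 each). It had the lowest cKO level of the 5 and, with Vax2 and Barx1, one of the 3 lowest control levels.

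Tbx1 had 3.48, 4.06 and 5.51 FPKM in Nex_cKO, against 2.05, 1.47 and 1.88 FPKM in Nex_Ctrl. Means were 4.35 ± 1.04 FPKM in Nex_cKO and 1.80 ± 0.300 FPKM in Nex_Ctrl (SD, n = 3 each), a ratio of 2.41. Control levels of Tbx1 lay above 50.11% to 52.94% of named rows, so the description of these genes as near 0 in control cortex does not hold for it. A second, lower row named Tbx1 had 0.0465, 0.253 and 0.0941 FPKM in Nex_cKO and was listed at 0 in every Nex_Ctrl library. Which transcripts each Tbx1 row covers is not given in the sources used here.

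On the log2(FPKM + 1) scale, which understates changes of low genes, the differences between Nex_cKO and Nex_Ctrl were 2.31 for Vax2 (SE 0.12), 2.15 for Barx1 (SE 0.12), 1.97 for Twist1 (SE 0.14), 1.45 for Pax2 (SE 0.13) and 0.92 for Tbx1 (SE 0.15). Without Nex_cKO replicate 3 they were 2.24, 2.09, 1.95, 1.39 and 0.77 in that order of genes. Every cKO library lay above every control library for all 5, which held for 11.5% of the 12528 genes tested, and 4.47% of those genes were higher at adjusted p under 0.05. Both shares are background only, because the genes were chosen for this difference. Tbx1 in replicate 3 was the highest value of any of the 5, at 5.51 FPKM.

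By mean FPKM in Nex_cKO the order was Twist1, Tbx1, Vax2, Barx1 and Pax2, and the libraries of each of the first 4 overlapped those of its neighbour in the order. Pax2 stood below all of them, its highest cKO library at 2.15 FPKM and the lowest of Barx1 at 3.05 FPKM. In Nex_Ctrl the order was Tbx1, Twist1, Pax2, Vax2 and Barx1, with gaps between Tbx1 and Twist1 and between Twist1 and Pax2 but overlap from Pax2 down. Vax2 in cKO cortex lay above 57.46% to 60.57% of named rows, Barx1 above 55.73% to 58.11%, Twist1 above 58.76% to 61.26%, Pax2 above 49.17% to 52.24% and Tbx1 above 57.6% to 63.38%. Since cortex was sequenced in bulk, a change in how many cells hold a transcript and a change in RNA per cell cannot be told apart.

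**Figure D1:**
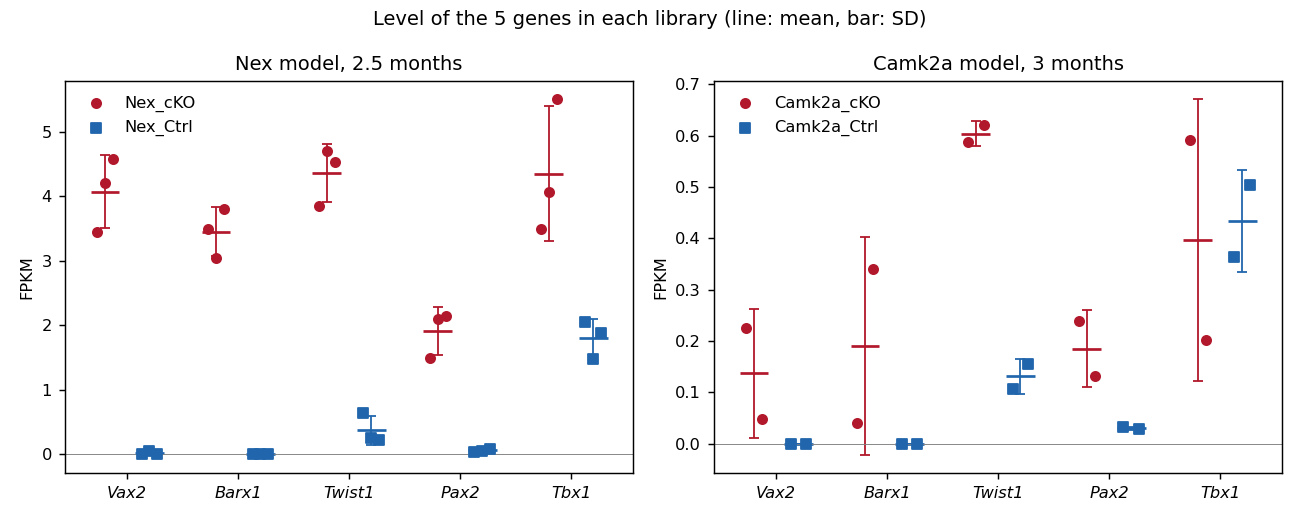
FPKM of the 5 genes in each library, as points with the mean (line) and SD (bar), at 2.5 months (left panel) and 3 months (right panel, with its own scale). All 3 Nex_cKO libraries lie above all 3 Nex_Ctrl libraries for each gene, Tbx1 starts from 1.47 to 2.05 FPKM in controls, and no gene passes 0.621 FPKM at 3 months.

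The rule that chose the genes used only 2.5-month libraries, so the Camk2a libraries allow a test of the same measure, though their earlier results were also known. In these libraries Twist1 and Pax2 again had more reads in both cKO libraries than in both controls, Vax2 and Barx1 gave a few reads in cKO and none in controls, and Tbx1 did not separate the groups. All 5 genes stayed below 1 FPKM in every library, so none of the 5 passed the filter on low values. Limma without that filter called none of the 5 nor any other of 27060 genes.

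Twist1 had 0.587 and 0.621 FPKM (17 and 17 reads) in Camk2a_cKO, against 0.107 and 0.155 FPKM (3 and 5 reads) in Camk2a_Ctrl. After the authors' scaling of each library, the summed reads were 4.54 times as many in cKO (95% interval 2.06 to 11.4), an interval that covers counting error only and compares these libraries. The log2(FPKM + 1) difference was 0.50 (SE 0.09, limma without the filter, adjusted p = 0.76). Pax2 had 0.239 and 0.132 FPKM (23 and 12 reads) in Camk2a_cKO, against 0.0322 and 0.0281 FPKM (3 and 3 reads) in Camk2a_Ctrl. Its read ratio was 6.23 (95% interval 2.59 to 18.1) and its log2 difference 0.20 (SE 0.07, limma without the filter, adjusted p = 0.865). For both genes the groups did not overlap, and neither passed limma's test over all genes.

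Vax2 had 0.226 and 0.0479 FPKM (5 and 1 reads) in Camk2a_cKO and 0 reads in both Camk2a_Ctrl libraries. The exact Poisson interval of 1 read runs from 0.0253 to 5.57, and that of 0 reads ends at 3.69, so the second cKO library cannot be set apart from controls at this depth. After scaling, summed Vax2 reads in cKO were 2.14 times an assumed floor of 3 reads over both controls. That figure leaves out counting error in the cKO reads and is not a lower bound. Barx1 had 0.0402 and 0.340 FPKM (1 and 8 reads) in Camk2a_cKO and 0 reads in both Camk2a_Ctrl libraries. Its summed cKO reads were 3.2 times the same floor, with the same limit. The library with more Vax2 had less Barx1, and the reverse. Differences of 0.18 for Vax2 and 0.24 for Barx1 on the log2(FPKM + 1) scale gave adjusted p = 0.87 for each gene (limma without the filter).

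Tbx1 had 0.591 and 0.203 FPKM (37 and 12 reads) in Camk2a_cKO, against 0.364 and 0.503 FPKM (22 and 35 reads) in Camk2a_Ctrl. Both controls lay between the cKO libraries, and the read ratio was 0.918 (95% interval 0.614 to 1.37). That interval of counting error lies below the ratio of 2.41 that Tbx1 had between Nex_cKO and Nex_Ctrl, but the spread between the cKO libraries is wider than counting error, and the tables were made apart.

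Both cKO libraries thus lay above both controls for 4 of the 5 genes, which held for 16.2% of 27060 genes with reads and for 22.7% of the 7221 genes with 6 to 106 reads in all, the range of the 5 genes. Of the 12919 genes that passed the filter in the Camk2a model, 0.0% were called by limma at adjusted p under 0.05 and 899 had an unadjusted p under 0.05. An exact two-sided permutation test of 2 libraries against 2 cannot give p below 0.333. Levels in the Camk2a_cKO libraries were a small part of those in Nex_cKO for every gene. Control means were also lower at 3 months for Tbx1, at 1.80 FPKM in Nex_Ctrl and 0.433 FPKM in Camk2a_Ctrl. The same held for Twist1 (0.372 and 0.131 FPKM) and Pax2 (0.0604 and 0.0301 FPKM). For Twist1, highest of the 5, means were 0.604 ± 0.0244 FPKM in Camk2a_cKO (SD, n = 2) and 4.36 ± 0.450 FPKM in Nex_cKO (SD, n = 3). That difference was not tested, because the models differ at once in age, in Cre driver and in the table they come from. They also differ in sex-linked transcripts, since Ddx3y stood at 10.98 to 12.35 FPKM across the 4 Camk2a libraries and was listed at 0 in 5 of the 6 Nex libraries.

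**Figure D2:**
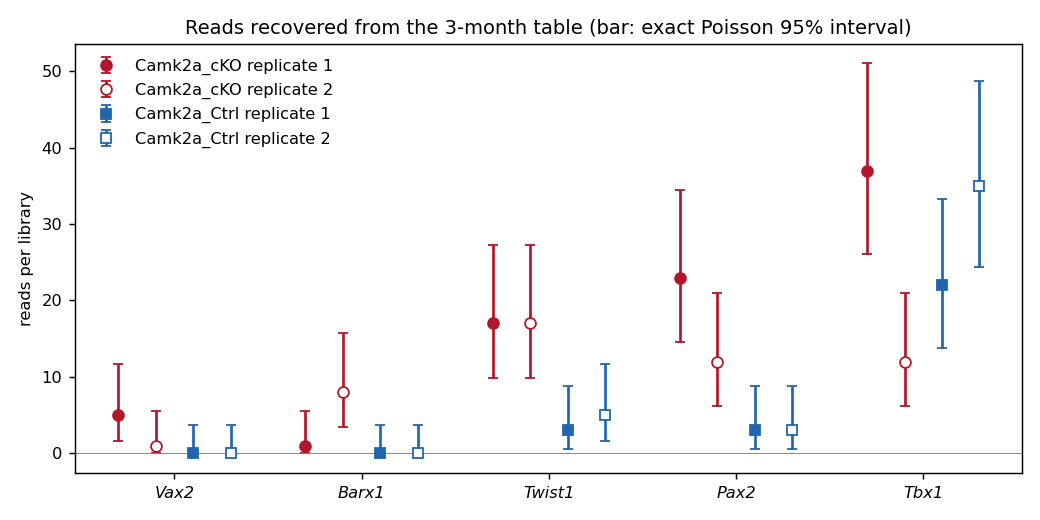
Reads recovered for the 5 genes in each library at 3 months, with exact Poisson 95% intervals as bars. Twist1 and Pax2 have 12 to 23 reads in Camk2a_cKO and 3 to 5 in Camk2a_Ctrl, Vax2 and Barx1 have 0 reads in both controls, and the 2 groups overlap for Tbx1.

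The next question is whether the change reached the genes beside them. Transcripts whose span overlaps the 5 genes were looked at first. Vax2os, an antisense transcript at chr6:83692806-83712201 (-) that overlaps the start of Vax2, had 0.150, 0.196 and 0.524 FPKM in Nex_cKO, against 0, 0 and 0.0353 FPKM in Nex_Ctrl. All 3 cKO libraries lay above the controls at a level well under that of Vax2, and Vax2os was listed at 0 in all 4 Camk2a libraries. The labels do not say whether strand was counted, so reads of Vax2 and Vax2os may not be separable where they overlap. Gm25054, a small nuclear RNA inside Vax2, had 0 and 0.613 FPKM in Camk2a_cKO and 0.599 and 0 FPKM in Camk2a_Ctrl. Within Pax2, Mir6405 and the antisense 1700039E22Rik were listed at 0 in all 10 libraries, and the antisense Gm20395 at 0 in all 4 Camk2a libraries.

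Of the 30 nearest protein-coding genes, 3 on each side of each of the 5, those with a value at 2.5 months stood in 25 distinct rows, of which 19 were tested, with 1 higher and 0 lower. Their median log2 change was -0.04, as it was over all genes tested. The background shares were 4.47% higher and 4.06% lower. No tested gene beside Vax2, Barx1, Pax2 or Tbx1 was called. Neighbours below the filter or without a value could not be called, among them the nearest gene on each side of Vax2. Next to Vax2, Cd207 at 33.4 kb, a lectin of Langerhans cells, and Atp6v1b1 at 4.68 kb, a proton pump subunit of kidney and ear, were listed at 0 in all 6 Nex libraries, and the row joining Atp6v1b1 with Tex261 averaged 13.2 ± 1.42 FPKM in Nex_cKO and 15.5 ± 1.51 FPKM in Nex_Ctrl (limma adjusted p = 0.237).

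Barx1 lies between Ptpdc1, a phosphatase gene at 37.3 kb with 5.87 ± 0.322 FPKM in Nex_cKO and 5.34 ± 0.158 FPKM in Nex_Ctrl (limma adjusted p = 0.46), and Phf2, a histone demethylase gene at 135.2 kb with 8.57 ± 0.554 FPKM in Nex_cKO and 9.16 ± 0.713 FPKM in Nex_Ctrl (limma adjusted p = 0.613). Pax2 lies between Hif1an, at 179.8 kb with 8.37 ± 0.385 FPKM in Nex_cKO and 10.1 ± 0.247 FPKM in Nex_Ctrl (limma adjusted p = 0.0971), and Slf2, at 93.2 kb with 8.44 ± 1.46 FPKM in Nex_cKO and 8.85 ± 0.688 FPKM in Nex_Ctrl (limma adjusted p = 0.77). Tbx1 lies 14.3 kb from Gnb1l, which had 2.61 ± 0.214 FPKM in Nex_cKO and 2.23 ± 0.277 FPKM in Nex_Ctrl (limma adjusted p = 0.423). On its other side the joined row of Gp1bb and Sept5, a platelet receptor subunit and a septin, averaged 396.9 ± 17.5 FPKM in Nex_cKO and 480.5 ± 21.7 FPKM in Nex_Ctrl (limma adjusted p = 0.103).

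Around Twist1 the picture differed in part. Ferd3l, another bHLH gene, lies at 28.4 kb and had 0.367, 0.297 and 0.144 FPKM in Nex_cKO, and was listed at 0 in all 3 Nex_Ctrl libraries. It stayed below the filter and was not tested, and in the Camk2a model it had 0 and 0.0671 FPKM in Camk2a_cKO and 0.0656 and 0 FPKM in Camk2a_Ctrl. Hdac9, a histone deacetylase gene at 87.8 kb, had 7.67 ± 1.53 FPKM in Nex_cKO and 6.31 ± 0.322 FPKM in Nex_Ctrl (limma adjusted p = 0.312). The 1 higher neighbour was Efcab10, at 556.4 kb, with 2.25, 1.91 and 2.24 FPKM in Nex_cKO and 1.10, 0.243 and 0.634 FPKM in Nex_Ctrl (log2 change 0.95, SE 0.18, limma adjusted p = 0.0148). Its limma call was lost without Nex_Ctrl replicate 3 (limma adjusted p = 0.0556) and without Nex_cKO replicate 1 (limma adjusted p = 0.0586). Twistnb, between Efcab10 and Twist1 and related to it only by position and name, had 4.46 ± 0.270 FPKM in Nex_cKO and 3.92 ± 0.664 FPKM in Nex_Ctrl (limma adjusted p = 0.467).

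**Figure D3:**
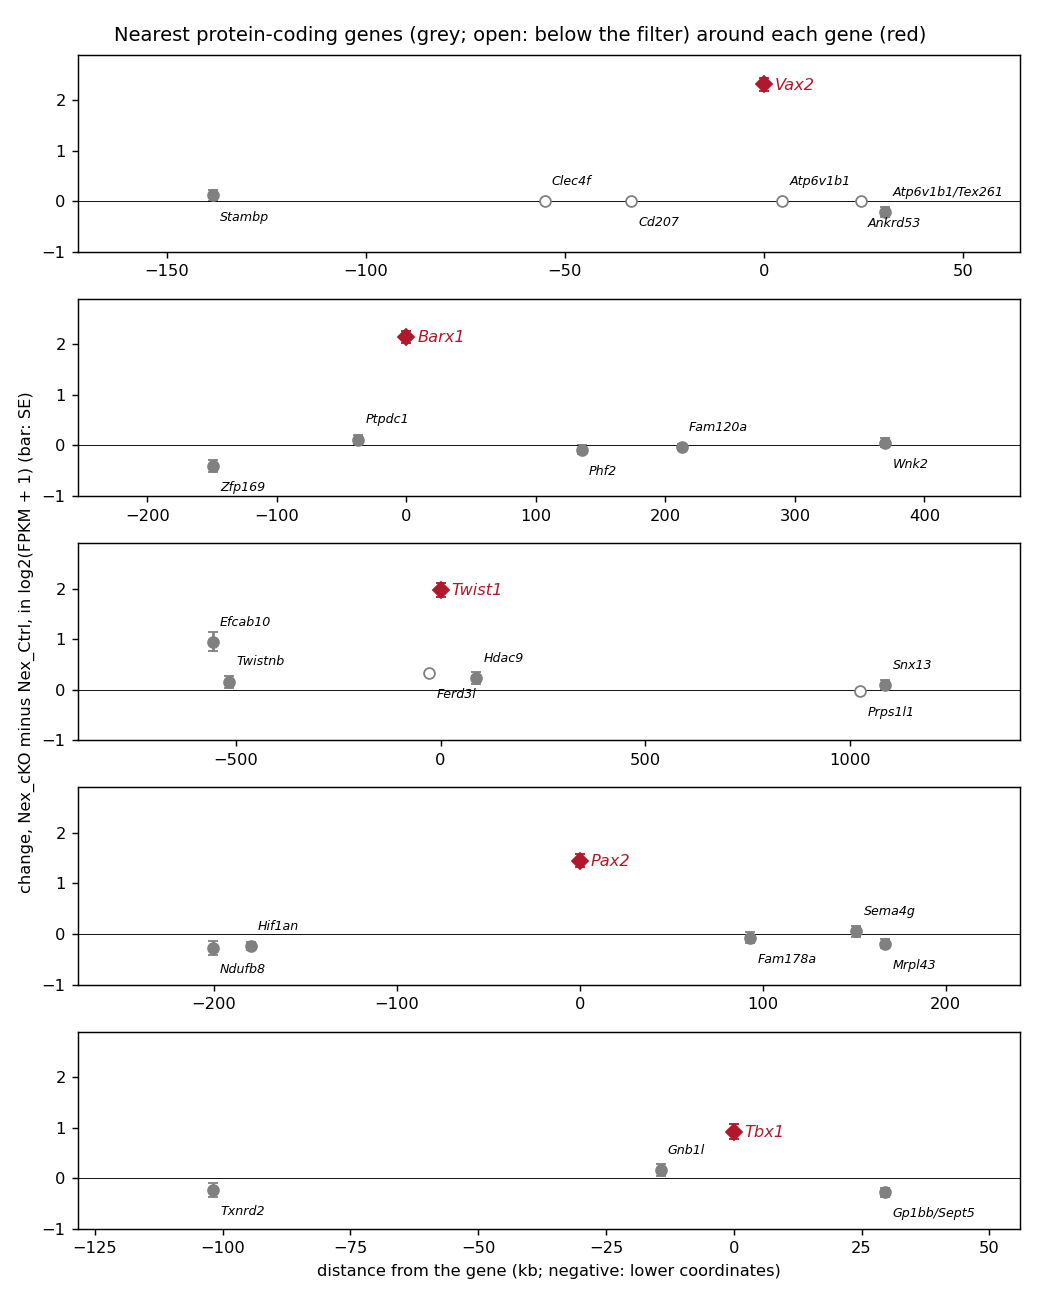
Change between Nex_cKO and Nex_Ctrl in log2(FPKM + 1), with SE where tested, against distance in kb for the nearest protein-coding genes around each of the 5 genes (diamonds at 0, which were chosen for their rise). Filled circles passed the filter and open circles did not. Of the tested neighbours only Efcab10 passed adjusted p under 0.05, and most lie near 0.

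Among relatives of the 5 genes by sequence family, a list of 43, 10 were tested, with 2 higher and 1 lower, against 4.47% higher and 4.06% lower over all genes tested. Their median log2 change was -0.09, against -0.04 over all genes tested. The higher pair were both Twist-like bHLH genes. Scx (Scleraxis), a factor of tendon progenitors, had 5.49, 6.95 and 6.18 FPKM in Nex_cKO and 2.85, 2.68 and 2.63 FPKM in Nex_Ctrl (log2 change 0.95, SE 0.10, limma adjusted p = 0.000629). Tcf15 (Paraxis), a factor of somites that brain endothelium also uses, had 2.0, 2.97 and 2.63 FPKM in Nex_cKO and 0.602, 0.636 and 1.05 FPKM in Nex_Ctrl (log2 change 1.0, SE 0.15, limma adjusted p = 0.0039). Scx lies inside Bop1 on the other strand, so its reads cannot be told apart from those of Bop1 if strand was not counted. The lower relative was Tbr1, a T-box factor of cortical excitatory neurons, at 47.6 ± 1.26 FPKM in Nex_cKO and 65.8 ± 2.97 FPKM in Nex_Ctrl (log2 change -0.46, SE 0.07, limma adjusted p = 0.00333). All 3 calls held in every alternative that tested the gene (Tcf15 was below a filter of FPKM 5), and leaving out Nex_cKO replicate 2 added a second lower relative.

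None of the closest relatives was called. Vax1, which shares the optic stalk with Vax2, had 1.03, 0.873 and 0.789 FPKM in Nex_cKO and 0.870, 1.12 and 0.977 FPKM in Nex_Ctrl, so the groups overlapped. Barx2 had 1.75, 2.13 and 3.56 FPKM in Nex_cKO and 2.60, 4.27 and 1.92 FPKM in Nex_Ctrl (limma adjusted p = 0.73). In the Camk2a model Barx2 had 4.20 and 4.72 FPKM in Camk2a_cKO and 2.45 and 3.06 FPKM in Camk2a_Ctrl (limma adjusted p = 0.487). Twist2 had 0.337, 0.370 and 0.161 FPKM in Nex_cKO and 0.679, 0.370 and 0.776 FPKM in Nex_Ctrl, so that the highest cKO value was level with the lowest control value. Pax5 and Pax8, which belong with Pax2 to one subfamily, were listed at 0 in every Nex_cKO library, and Tbx10, close to Tbx1, in all 6 Nex libraries. Apart from Barx2 these genes were below the filter at 2.5 months and were not tested there. Vax1 passed it at 3 months, with 1.46 and 0.852 FPKM in Camk2a_cKO and 0.676 and 1.49 FPKM in Camk2a_Ctrl (limma adjusted p = 0.984).

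Known partners of the 5 genes in the embryo were also followed, as 6 lists with 150 genes in all. Of these 68 were tested, 1 was higher and 5 were lower, with a median log2 change of -0.08, against -0.04 over all genes tested and background shares of 4.47% higher and 4.06% lower. Partners of Vax2 in the ventral eye and optic stalk gave 15 tested genes with 0 higher and 1 lower, the ephrin receptor Ephb3, at 8.50 ± 0.954 FPKM in Nex_cKO and 11.7 ± 1.13 FPKM in Nex_Ctrl (limma adjusted p = 0.0383). Partners of Pax2 at the midbrain-hindbrain boundary gave 7 tested genes and those of kidney and ear another 7, with none called in either direction. Fgf8, the signal of that boundary, and Lhx1, a partner in the kidney, were listed at 0 in all 6 Nex libraries.

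Partners of Tbx1 in the pharyngeal arches gave 10 tested genes with 0 higher and 2 lower. Fgf10, a growth factor of the second heart field, fell to 0.635 ± 0.114 FPKM in Nex_cKO, against 1.44 ± 0.152 FPKM in Nex_Ctrl (limma adjusted p = 0.0197), and Smad7, an inhibitor of transforming growth factor signalling, to 6.53 ± 1.13 FPKM, against 9.19 ± 0.464 FPKM (limma adjusted p = 0.0462). Partners of Barx1 in stomach, tooth and jaw gave 11 tested genes with none called. Mesenchymal genes tied to Twist1 gave 23 tested, with 1 higher and 2 lower. The matrix protease Mmp2 had 1.81 ± 0.174 FPKM in Nex_cKO and 0.484 ± 0.366 FPKM in Nex_Ctrl (log2 change 0.95, SE 0.18, limma adjusted p = 0.0116). Id3, an inhibitor of bHLH factors, had 16.4 ± 1.19 FPKM in Nex_cKO and 23.8 ± 2.57 FPKM in Nex_Ctrl (limma adjusted p = 0.0115), and the cadherin Cdh11 had 11.1 ± 0.249 FPKM in Nex_cKO and 13.8 ± 0.303 FPKM in Nex_Ctrl (limma adjusted p = 0.0359).

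Of the called partners, Id3 alone kept its call without each library in turn. Mmp2 lost it without Nex_Ctrl replicate 2 (limma adjusted p = 0.0534). Fgf10 lost it without any one of Nex_cKO replicate 1 and the 3 controls, Smad7 and Ephb3 without any one of Nex_cKO replicates 1 and 3 and the 3 controls, and Cdh11 without any one of Nex_cKO replicates 1 and 2 and the 3 controls. Quantile normalization, rescaling by the median ratio and a replicate block each also ended the calls of Ephb3, Smad7 and Cdh11. With no filter the calls of Ephb3 and Smad7 ended, and that of Smad7 also with a filter of FPKM 5 or no intensity trend. Leaving out 1 library gave 0 to 4 higher and 1 to 6 lower partners. No gene of the relative, partner or marker lists was called in the Camk2a model.

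Against all transcription factors the 5 genes stood as follows, again as a description. Among 761 tested single-gene rows with a transcription factor family, Vax2 ranked 2 by log2 change, Barx1 5, Twist1 6, Pax2 8 and Tbx1 15. Other ranks up to 10 included Dmrtb1, Nhlh1, Zfp648, Pou4f1 and Hsfy2. Of 7738 named rows with every Nex_Ctrl library under 0.1 FPKM, 27 had every Nex_cKO library at 1 FPKM or more, and these included 6 of 310 transcription factor rows. The 6 were Vax2, Barx1 and Pax2 with Mnx1, Pou4f1 and Hsfy2. Since Vax2, Barx1 and Pax2 were chosen for their rise in these libraries, the count is no evidence of an excess among transcription factors. Twist1 and Tbx1 fell outside this pattern through their control levels.

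Mnx1, a homeobox factor of motor neurons, had 1.37, 1.56 and 1.08 FPKM in Nex_cKO and was listed at 0 in each Nex_Ctrl library. In the Camk2a model it had 0.0999 and 0.0264 FPKM in Camk2a_cKO and 0 in both controls, the same arrangement as Vax2 and Barx1. Pou4f1, a factor of sensory neurons, had 1.57, 1.71 and 1.76 FPKM in Nex_cKO and 0, 0.0265 and 0 FPKM in Nex_Ctrl, but 0.0601 and 0.166 FPKM in Camk2a_cKO and 0.0622 and 0.0108 FPKM in Camk2a_Ctrl, where the groups overlapped. Hsfy2 was listed at 0 in all 4 Camk2a libraries.

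By the deposited family labels and without the 5 genes, 38 homeobox rows were tested with 1 higher (Mnx1) and 1 lower, Meis2, a homeobox factor, at 7.50 ± 0.310 FPKM in Nex_cKO and 13.7 ± 0.745 FPKM in Nex_Ctrl (limma adjusted p = 0.000369). Of 59 tested bHLH rows 8 were higher and 5 lower, against 4.47% and 4.06% over all genes tested. Nhlh1, a bHLH factor of young neurons, had the largest log2 change among the higher bHLH rows, with 6.36 ± 2.13 FPKM in Nex_cKO and 0.476 ± 0.217 FPKM in Nex_Ctrl (log2 change 2.29, SE 0.21, limma adjusted p = 0.00024). Mnx1, Meis2 and Nhlh1 were named after their values were seen, and their calls held in every alternative that tested them. Those alternatives use the same 6 libraries and add no separate support. Mnx1 and Nhlh1 passed the filter only through the Nex_cKO libraries, where they are high. Only 1 other PAX row and 3 other T-box rows passed the filter, with no higher gene. Over all families, 845 rows were tested, with 23 higher and 33 lower and a median log2 change of -0.01.

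**Figure D4:**
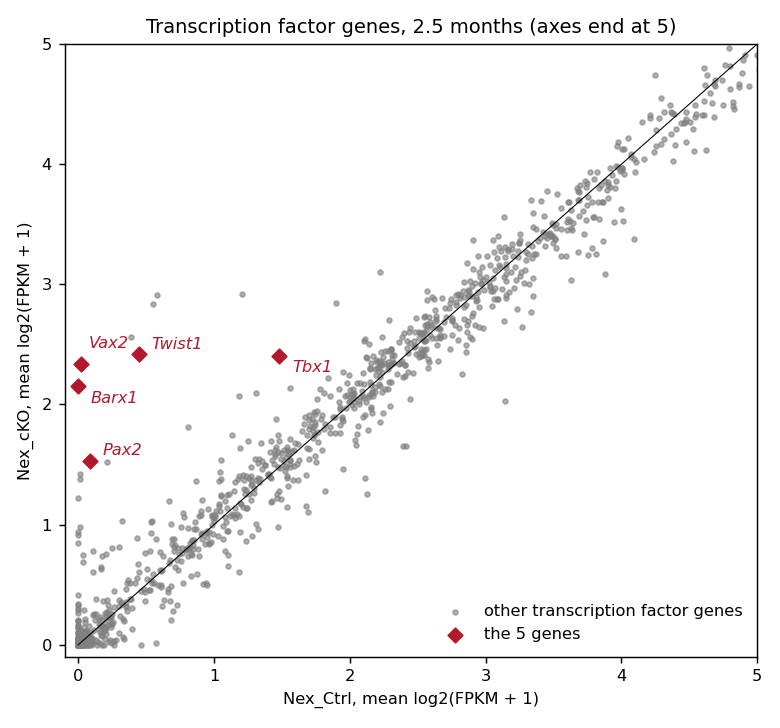
Mean log2(FPKM + 1) of transcription factor genes in Nex_cKO (vertical axis) against Nex_Ctrl (horizontal axis), with the line of equal values. Shown are 1217 of 1274 genes, since 57 lie beyond the axes. Vax2, Barx1 and Pax2 stand at the left edge above most grey points of like control level, and Tbx1 lies furthest to the right of the 5.

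Genes whose levels ran most like those of the 5 were sought over all 10 libraries among 18159 rows found in both tables, by the root mean square (RMS) difference in log2(FPKM + 1), leaving out the 5 themselves. Nearest to Vax2 were Tbxas1, thromboxane synthase (0.169), Pi16 (0.199) and Alpk3 (0.201), and nearest to Barx1 were the same 3 genes, at 0.154 for Pi16, 0.159 for Alpk3 and 0.199 for Tbxas1. Among the genes nearest to Twist1 were Slc12a8 (0.245) and Tes (0.273). Slc12a8 had 1.45 and 0.683 FPKM in Camk2a_cKO and 0.248 and 0.102 FPKM in Camk2a_Ctrl. The Camk2a libraries were part of the measure that picked it, so its likeness to Twist1 there is no separate result. Pax2 lay nearest to the hemidesmosome collagen Col17a1 (0.117), Arid3c (0.12) and Pou4f1 (0.121). Tbx1 lay nearest to Fam161a (0.226), Tfpi, an inhibitor of coagulation (0.25), and Aox1 (0.255). Tbxas1 and Arid3c overlap other protein-coding genes on the opposite strand. Among the 5 genes, Vax2 and Barx1 were closest to each other (0.191), which is nearer than Vax2 lay to Pi16 or Alpk3 and than Barx1 lay to Tbxas1, and Pax2 and Tbx1 farthest apart (0.939). In the Camk2a model the groups overlapped for Tbxas1, Pi16, Pou4f1 and Aox1. They did not overlap for Slc12a8, Alpk3, Tes, Col17a1, Arid3c, Fam161a and Tfpi. Measured this way, likeness mostly reflects level, and the libraries are shared by all genes.

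Cortical libraries can hold other cells in which such factors are used, so marker lists are given beside the changes. Their calls are to be read against the 4.47% higher and 4.06% lower over all genes tested. Of 21 markers of vascular and meningeal fibroblasts 13 were tested with 1 higher (Col6a1) and 1 lower (Col15a1), and their summed level was 324.6 to 382.2 FPKM in Nex_cKO and 363.1 to 374.0 FPKM in Nex_Ctrl. Of 15 endothelial markers 1 was higher, the row joining Esam with its neighbours, and 3 were lower (Egfl7, Sox18 and Cldn5), with sums of 124.0 to 138.9 FPKM in Nex_cKO and 143.8 to 175.3 FPKM in Nex_Ctrl. Of 10 tested markers of pericytes and smooth muscle 1 was higher (Cspg4), with sums of 54.1 to 66.9 FPKM in Nex_cKO and 60.9 to 71.4 FPKM in Nex_Ctrl. Fibroblast and pericyte sums thus overlapped between the groups, and the endothelial sums were lower in every Nex_cKO library. Calls for Egfl7, Sox18 and the Esam row held without each library in turn. Col15a1 lost its call without Nex_Ctrl replicate 2 or 3, Col6a1 without Nex_cKO replicate 1 or any one control, Cldn5 without Nex_cKO replicate 1 or 3 or Nex_Ctrl replicate 1 or 3, and Cspg4 without Nex_cKO replicate 1 or 2 or any one control. With no filter or no intensity trend the calls of Col6a1 and Cldn5 ended, and that of Cldn5 also with a filter of FPKM 5 or quantile normalization.

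Of 10 choroid plexus markers 1 was tested and not called (1 was higher without Nex_cKO replicate 3, and 1 with no filter), Otx2 was listed at 0 in all 6 libraries, and the sum was 3.16 to 5.42 FPKM in Nex_cKO and 1.67 to 1.76 FPKM in Nex_Ctrl. For hypothalamic and ventral forebrain neurons, 3 of 12 were tested with 1 higher (Avp), Rax, Sim1 and Six6 were listed at 0 in all 6 Nex libraries, and the sum was 40.8 to 57.2 FPKM in Nex_cKO and 42.7 to 45.4 FPKM in Nex_Ctrl. Thalamic markers gave 6 tested with none called, at 30.6 to 32.2 FPKM in Nex_cKO and 26.1 to 28.2 FPKM in Nex_Ctrl. Striatal markers gave 7 tested with 0 higher and 2 lower, among them the row joining Foxp1 with Eif4e3, and Isl1 was listed at 0, with sums of 117.4 to 153.3 FPKM in Nex_cKO and 132.7 to 134.4 FPKM in Nex_Ctrl. Ependymal markers gave 3 tested with 1 higher (Mia), and Tmem212 was listed at 0, with sums of 77.5 to 85.2 FPKM in Nex_cKO and 79.6 to 84.2 FPKM in Nex_Ctrl. Avp and Mia each lost the call without Nex_Ctrl replicate 2 or 3, and the Foxp1 row without Nex_cKO replicate 1 or 2 or any one control. The Foxp1 row also lost it with a filter of FPKM 5, quantile normalization, median ratio rescaling, no intensity trend or a replicate block.

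Markers of cortical excitatory neurons, the cells the labels' drivers act in, were present in all libraries. All 10 were tested, 4 were lower (Lamp5, Tbr1, Neurod6 and Fezf2) and 1 was higher (Neurod2), and the sum was 1407 to 1556 FPKM in Nex_cKO and 1658 to 1744 FPKM in Nex_Ctrl. Neurod6 is also the locus that carries Nex-Cre, and the part of the driver allele in its lower level was not tested. The 14 markers of GABAergic neurons gave 1 higher (Gad2), with sums of 539.6 to 848.4 FPKM in Nex_cKO and 741.8 to 859.1 FPKM in Nex_Ctrl. Of 10 markers each, astrocytes gave 1 higher (Gfap) at 959.2 to 1003 FPKM in Nex_cKO and 867.1 to 942.6 FPKM in Nex_Ctrl, microglia 2 higher (Trem2 and Ctss) at 261.5 to 291.9 FPKM in Nex_cKO and 210.1 to 258.5 FPKM in Nex_Ctrl, and the oligodendrocyte lineage 1 higher (Cspg4) and 1 lower (Sox10) at 955.7 to 1182 FPKM in Nex_cKO and 1272 to 1378 FPKM in Nex_Ctrl. Red blood cell genes gave 3 tested, all lower (Hbb-b2 and the joined rows of Hba-a1 with Hba-a2 and of Hbb-b1 with Hbb-bs), with sums of 54.2 to 97.4 FPKM in Nex_cKO and 130.4 to 287.0 FPKM in Nex_Ctrl. Calls for Lamp5, Tbr1, Neurod6, Gad2, Gfap and Trem2 held without each library in turn. Fezf2 and Sox10 lost theirs without Nex_cKO replicate 1 or any one control, Neurod2 without Nex_cKO replicate 1 or 2 or any one control, Ctss without Nex_cKO replicate 1 or Nex_Ctrl replicate 2 or 3, Hbb-b2 without Nex_Ctrl replicate 3, and the other globin rows without Nex_cKO replicate 1 or Nex_Ctrl replicate 1 or 3. Among other alternatives, Fezf2 lost its call with every one but the pseudocount of 0.1, Neurod2 with no intensity trend or a replicate block, Sox10 with a replicate block, and the Hbb-b1 row with no filter. Sums were higher in every Nex_cKO library than in every Nex_Ctrl library for choroid plexus, thalamic, astrocyte and microglial markers. They were lower in every Nex_cKO library for endothelial, cortical excitatory neuron, oligodendrocyte lineage and red blood cell markers. Sums of the remaining lists overlapped between the groups. Whether these marker differences come from cell makeup or from RNA per cell was not tested. Their part in the levels of Vax2, Barx1, Twist1, Pax2 and Tbx1 was not tested either.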

How the data were processed

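Total RNA of whole somatosensory cortex was isolated with RNAiso Plus, and libraries were built with the NEBNext Ultra II RNA kit, per the labels' protocols. The authors deposited FPKM values in 2 tables. Tools named in the submitters' processing notes, with no role given, are DESeq2, cutadapt, Cufflinks 2.2.1 and STAR, and the builds there are mm10 and GRCm38. Strandedness is not given in the sources used here. Rows with no gene name (4463 at 2.5 months) were left out, and of rows sharing a name the one with the highest mean was kept (1864 dropped at 2.5 months and 105 at 3 months).

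Limma 3.58.1 (R 4.3.3) was run on each table separately, on log2(FPKM + 1) with an intensity trend. A gene entered when it reached FPKM 1 in 3 or more libraries at 2.5 months, or in 2 or more at 3 months. Genes below that level throughout a group, such as Mnx1, Nhlh1, Mmp2, Avp and Fgf10, thus entered only through the other group. P-values are two-sided, carry the Benjamini-Hochberg adjustment over every gene in the fit, and measure only the spread between these libraries. "Higher", "lower" and "called" mean adjusted p under 0.05. The fit was tested on simulated data. In the 3-month table, FPKM times deposited gene length fell on whole multiples of a per-library step (tolerance 0.1) for 100% of values, which gave reads. Intervals on reads are exact Poisson (95%), the floor is 3 reads over a group, and read ratios use the per-library scaling implied by that step, which is the authors' own and not the summed reads. Reads were not recovered at 2.5 months.

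The members and the lists of relatives, partners and markers were chosen with earlier results of these data known. Named genes were the 5 members, overlapping genes, the nearest neighbour on each side, closest relatives, called genes of the lists (up to 4 a list) and the 3 most similar genes of each member; a few genes that these rules name are not reported here. As alternatives, the pseudocount was set to 0.1, the filter was dropped or raised to FPKM 5, and values were quantile normalized or rescaled by median ratios. Fits without the intensity trend, with a replicate block and without each library were also made.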

Additional observations from a re-analysis of the deposited data

How the results depend on the processing

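Every alternative that gave a value kept the 2.5-month differences of Vax2, Barx1, Twist1, Pax2 and Tbx1 positive. This is description only, since the genes were chosen on these values and every cKO library lay above every control library. With a pseudocount of 0.1 the log2 differences grew to 5.18 for Vax2, 5.14 for Barx1, 3.34 for Twist1, 3.64 for Pax2 and 1.21 for Tbx1 in the Nex model, and to 1.14 for Vax2, 1.31 for Barx1, 1.61 for Twist1 and 1.11 for Pax2 in the Camk2a model, as the construction of a smaller pseudocount implies for low values. Tbx1 in the Camk2a model ranged from -0.25 to 0.15 on leaving out each library. Over all genes, the Nex model gave 757 higher and 434 lower with no filter, against 560 and 509 in the main fit. A filter of FPKM 5 left 197 higher in the Nex model, and leaving out each library gave 160 (without Nex_Ctrl replicate 1) to 685 lower (without Nex_cKO replicate 2). In the Camk2a model there was 1 higher gene with a filter of FPKM 5 and 5 without an intensity trend, and leaving out each library gave 0 to 5 higher and 0 to 1 lower.

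Whether replicate numbers pair the samples was not settled. Deviations of same-numbered Nex libraries correlated at 0.0167, -0.104 and -0.0956, and those of the Camk2a libraries at 0.0496. Low correlations do not exclude pairing. With 2 libraries a group the deviations mirror each other, so the Camk2a value cannot decide it. With a replicate block the Nex model gave 272 lower genes, and partners gave 2 higher and 3 lower.

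Higher relatives numbered 5 with no filter and 1 with a filter of FPKM 5, and lower relatives 1 to 2 on leaving out each library. Higher partners numbered 7 with no filter, 0 with a filter of FPKM 5 and 2 without an intensity trend, and 0 to 4 on leaving out each library. Lower partners numbered 3 with a filter of FPKM 5, 2 with quantile normalization and 2 with median ratio rescaling, and 1 to 6 on leaving out each library. Higher neighbours numbered 2 with no filter and 0 with a filter of FPKM 5, and 0 to 1 on leaving out each library. Barx2 changed sign, to 0.068 without Nex_Ctrl replicate 2, in a range of -0.38 to 0.068. Of 39 single genes other than the 5, 36 were called, and 17 of the 39 kept their call and direction in every alternative. The cause of these shifts was not tested, beyond the number of genes that a filter admits. In the Camk2a model both depth (few reads of Vax2 and Barx1) and the number of libraries, 2 a group, limit the precision.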
